A study of Saccharomyces cerevisiae with 18 samples.

Results

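Capped, polyadenylated RNA molecules of Saccharomyces cerevisiae that began inside a coding sequence and ran past its stop codon made up 6.89% of the capped reads assigned to a gene. A read was called internal when its 5' end lay within a coding sequence of the same strand, its 3' end lay beyond that stop codon and it held no complete coding sequence. A read was called whole when it held exactly 1 complete coding sequence, and the internal-start share is the internal reads divided by internal plus whole reads. Member genes were those with at least 50 internal reads over the 4 capped columns, which kept 3764 of the 6002 protein-coding genes of build R64, and 26 genes sat at exactly 50 reads with another 27 just outside at 49. Over all genes, internal reads covered 663297 of the 2502656 pairs of a 5' and a 3' end in the table, and members held 96.9% of these reads.

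The molecules came from transcript isoform sequencing (TIF-Seq), which circularises full-length cDNA so that both ends of one RNA are read together. The cells were the wild-type diploid strain SLS045 of the S288c background, grown to mid-log phase (OD 1) in YPGal, with 1% galactose, or in YPAD, with 1% glucose. Capped molecules were sequenced in 2 long-enriched libraries of galactose cultures 1 and 4, 2 long-enriched libraries of glucose cultures 1 and 2, 6 standard libraries of galactose cultures 1 to 4 and 6 standard libraries of glucose cultures 1 and 2. The long-enriched cultures were thus also in the standard columns, and some standard libraries carried capped Bacillus subtilis spike-ins. A variant of the method for polyadenylated molecules without a cap gave 1 library of galactose culture 3 and 1 of glucose culture 2. The deposited counts are summed over the libraries of each kind, so each group has 1 value, no spread between cultures can be given and no test was possible. The intervals below are exact binomial 95% intervals that cover counting error only. They are too narrow wherever PCR copies were counted more than once.

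The cap is added as RNA polymerase II begins transcription, so a capped 5' end marks a place where a transcript began, whereas 5' ends without a cap arise by cleavage or by decay from the 5' end. Yeast polymerase scans for its start and tends to begin on a purine that follows a pyrimidine. A start inside a coding sequence removes the annotated start codon, and translation can then begin at a downstream ATG, which if in frame gives a protein that lacks its N terminus. Yeast uses this arrangement to make a secreted and an intracellular invertase from SUC2, and mitochondrial and cytosolic or nuclear forms of several tRNA enzymes from 1 gene each.

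The first set of sites lay more than 50 nt inside the annotated coding sequence and carried almost no non-capped reads. It is shown because each site has a purine after a pyrimidine and is followed by an in-frame ATG. The capital letter is the most used capped 5' end and the capital ATG is the first one downstream that is in the gene's frame. The RefSeq R64 intervals are BOL2 at chrVII:82407-82487 on the plus strand, PRT1 at chrXV:1017527-1017615 on the minus strand, SPL2 at chrVIII:374990-375048 on the minus strand, MOG1 at chrX:573137-573193 on the plus strand, COX23 at chrVIII:341679-341733 on the plus strand and MET7 at chrXV:787122-787189 on the plus strand.
BOL2: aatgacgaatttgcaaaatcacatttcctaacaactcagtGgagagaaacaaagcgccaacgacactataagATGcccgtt
PRT1: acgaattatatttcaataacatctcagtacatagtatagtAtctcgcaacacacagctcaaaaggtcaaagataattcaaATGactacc
SPL2: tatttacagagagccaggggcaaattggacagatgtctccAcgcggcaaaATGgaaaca
MOG1: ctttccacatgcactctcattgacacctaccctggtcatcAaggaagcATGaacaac
COX23: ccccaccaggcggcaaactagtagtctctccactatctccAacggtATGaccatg
MET7: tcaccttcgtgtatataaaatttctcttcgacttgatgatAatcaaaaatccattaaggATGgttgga

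The second set comes from genes known to code for a long and a short protein. The capitals have the same meaning, and LEU4 is included because an out-of-frame ATG, in lower case, precedes its in-frame one. The intervals are SUC2 at chrIX:37395-37453 on the plus strand, HTS1 at chrXVI:638951-639045 on the minus strand, TRM1 at chrIV:693205-693274 on the minus strand and LEU4 at chrXIV:426656-426779 on the minus strand.
SUC2: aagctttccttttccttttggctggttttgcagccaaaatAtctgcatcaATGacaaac
HTS1: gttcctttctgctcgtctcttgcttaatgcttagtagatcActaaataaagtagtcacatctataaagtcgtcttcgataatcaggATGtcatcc
TRM1: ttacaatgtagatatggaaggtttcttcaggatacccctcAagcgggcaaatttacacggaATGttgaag
LEU4: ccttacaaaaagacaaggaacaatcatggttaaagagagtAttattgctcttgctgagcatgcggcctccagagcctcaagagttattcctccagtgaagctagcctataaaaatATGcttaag

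The third set shows deep sites at which non-capped molecules began as well. None of these 4 has a purine after a pyrimidine, though EMI1, another shared site described below, does. The capital letter is the most used capped 5' end, with 40 bases before it. The intervals are GPM1 at chrXI:163849-163928 on the minus strand, GAL10 at chrII:276457-276536 on the minus strand, SNU13 at chrV:102155-102234 on the plus strand and TRX1 at chrXII:231832-231911 on the minus strand.
GPM1: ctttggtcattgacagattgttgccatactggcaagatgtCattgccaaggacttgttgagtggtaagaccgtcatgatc
GAL10: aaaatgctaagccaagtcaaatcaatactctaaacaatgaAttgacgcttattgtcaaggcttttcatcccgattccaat
SNU13: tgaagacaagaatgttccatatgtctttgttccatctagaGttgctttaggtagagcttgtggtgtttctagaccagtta
TRX1: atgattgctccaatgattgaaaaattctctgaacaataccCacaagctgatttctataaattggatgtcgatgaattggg

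The fourth set shows sites at the junction of an intron with the next exon in ribosomal protein genes. The single capital is the most used capped 5' end and the capital triplet is the first 3 bases of the later exon, and in RPL19B the most used end is the exon's own first base. The intervals are RPL19A at chrII:414725-414804 on the minus strand, RPS30B at chrXV:678350-678429 on the minus strand, RPL19B at chrII:168769-168848 on the plus strand and RPL20A at chrXIII:753712-753791 on the minus strand.
RPL19A: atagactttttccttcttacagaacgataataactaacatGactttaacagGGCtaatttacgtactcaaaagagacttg
RPS30B: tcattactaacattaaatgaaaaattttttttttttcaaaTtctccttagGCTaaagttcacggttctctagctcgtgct
RPL19B: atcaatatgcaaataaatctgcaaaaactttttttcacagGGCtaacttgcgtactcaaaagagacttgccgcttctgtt
RPL20A: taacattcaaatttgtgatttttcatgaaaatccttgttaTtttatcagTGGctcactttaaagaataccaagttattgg

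The internal-start share lay between 6.12% and 7.75% in the 4 capped columns and was far higher among molecules without a cap. It was 6.87% (234359 internal and 3176176 whole reads) in long-enriched galactose and 6.66% (175165 and 2455839) in long-enriched glucose. It was 7.75% (484543 and 5769844) in standard galactose and 6.12% (377063 and 5779509) in standard glucose. In the non-capped columns it was 93.0% (972983 and 73517) in galactose and 94.2% (1177438 and 71970) in glucose. Counting error alone gives the capped shares intervals no wider than 6.63 to 6.69%, and the difference between media cannot be told apart from a difference between cultures. With each pair of ends counted once, the share over the 4 capped columns was 31.2% instead of 6.89%. The capped columns held 2745847 to 6425269 reads each, and the non-capped ones 1100551 in galactose and 1317650 in glucose. Capped internal reads averaged 1.92 per pair of ends and 471549 of their 663297 pairs were seen once, while non-capped internal reads averaged 16.4 per pair, so fewer distinct molecules stand behind a non-capped share than its read count implies.

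Per gene, the internal-start share spanned nearly the whole possible range. The member median was 20.4%, with quartiles of 8.76% and 46.9% and extremes of 0.195% and 100%. In 889 members internal reads outnumbered whole reads, and 688 of these were among the 1048 members whose coding sequence spans more than 2000 nt. No whole read was present for 136 members, 59 of which are longer than 5000 nt, the longest span in the table, and so could not have had one. Among the 10 well-covered members with the highest shares, 7 were of this kind: RRP5, which acts in ribosomal RNA processing, FKS1, a glucan synthase subunit, the fatty acid synthase subunits FAS1 and FAS2, URA2, of pyrimidine synthesis, GCN1, of the response to amino acid starvation, and REA1, of ribosome assembly. The nucleoporin gene NUP188, at 4968 nt, was just under that limit, and PRT1 and MRPL10, described below, were the other two.

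Gene length and protocol moved together with the internal-start share. For members up to 500 nt the share was 3.19% in long-enriched galactose, 3.25% in long-enriched glucose, 2.62% in standard galactose and 2.32% in standard glucose. From 1500 to 2000 nt it was 5.34% in long-enriched galactose and 5.53% in long-enriched glucose, against 33.8% in standard galactose and 26.3% in standard glucose. Above 2000 nt it was 27.8% in long-enriched galactose and 24.6% in long-enriched glucose, against 75.5% in standard galactose and 74.5% in standard glucose. The protocols thus differed little for short genes and widely for long ones, and the part that recovery of long cDNA plays was not tested.

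Capped internal 5' ends were concentrated near the start codon and non-capped ones were not. With the coding sequence cut into 10 equal parts, part 1 held 18.6% of capped internal ends, against 5.20% of non-capped ones. Part 8 held 10.6% of capped ends, against 16.1% of non-capped ends. The first 50 nt alone held 14.98% of capped ends, with 13.3% to 18.3% over the 4 columns, against 3.93% of non-capped ends, with 3.77% in galactose and 4.06% in glucose.

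**Figure D1:**
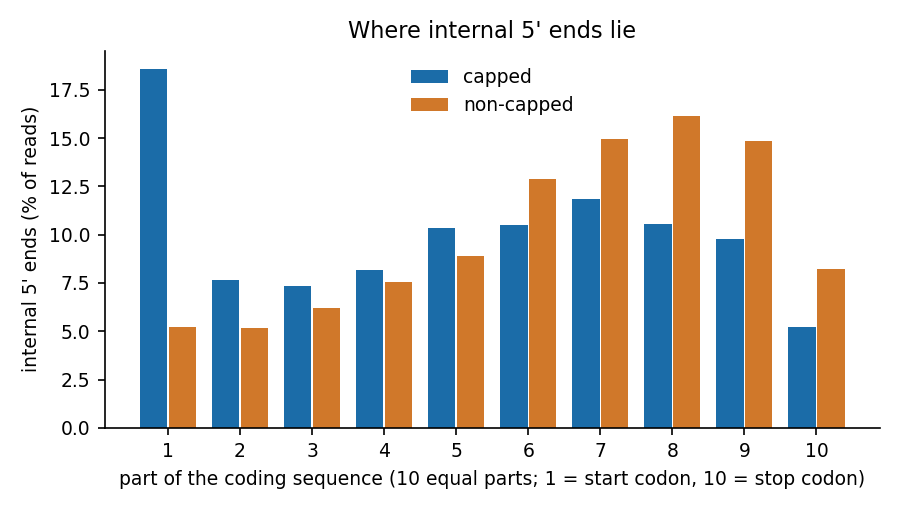
Share of internal 5' ends (y axis, percent of reads) in each of 10 equal parts of the coding sequence (x axis, start codon to stop codon), with the 4 capped columns summed in blue left of the 2 non-capped columns summed in orange. Capped ends peak in part 1 at 18.6%, where non-capped ends stand at 5.20%, and non-capped ends peak in part 8 at 16.1%, where capped ends stand at 10.6%.

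Most members had spread internal ends and a minority had a recurrent window of ends. Whether each 5' end read in a capped library is a start of transcription was not tested. For each gene the 21 nt window with the most capped internal 5' ends was found, and the window was called recurrent when it held at least 50% of them with at least 5 different 3' ends. The position given for a window is that of its most used end, which need not be its centre. For MOG1 these are 83 and 90. The median window held 14.7% of a member's internal ends, with quartiles of 9.61% and 25.8%. An even spread would put a median of 1.52% into any 1 window fixed beforehand. Choosing the fullest window raises the first value, so the 2 values are not on a par. The rule called 327 members, 8.69% of the 3764, and 8.33% of the 4708 genes that had at least 20 internal reads. With each pair of ends counted once it called 157 of 3303. Of the 327, 199 had the window centre in the first 50 nt of an intronless coding sequence, 91 had it deeper in an intronless gene and 37 were genes with introns. Recurrent windows were found in a larger part of the short genes, with 108 of 284 members up to 500 nt, 133 of 913 from 500 to 1000 nt, 47 of 865 from 1000 to 1500 nt, 24 of 654 from 1500 to 2000 nt and 15 of 1048 above 2000 nt.

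Most recurrent windows held a larger share of capped than of non-capped ends. A window was called capped-enriched when its share of capped internal ends was at least 2-fold its share of non-capped ones and the 2 intervals did not overlap. Among the 254 recurrent genes with at least 20 non-capped internal reads, 220 were capped-enriched, comprising 146 of 161 in the first 50 nt, 40 of 57 deeper and 34 of 36 with introns. Because the window was placed on the capped reads, a lower non-capped share is favoured by construction, and 65.4% of all 3437 members measured in both kinds met the rule. When the window was placed on the standard glucose reads and the galactose columns were compared instead, 132 of 163 genes (81.0%) whose window held at least 50% in glucose were capped-enriched, against 776 of the other 2162 (35.9%). This second comparison was added after the data had been seen.

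**Figure D2:**
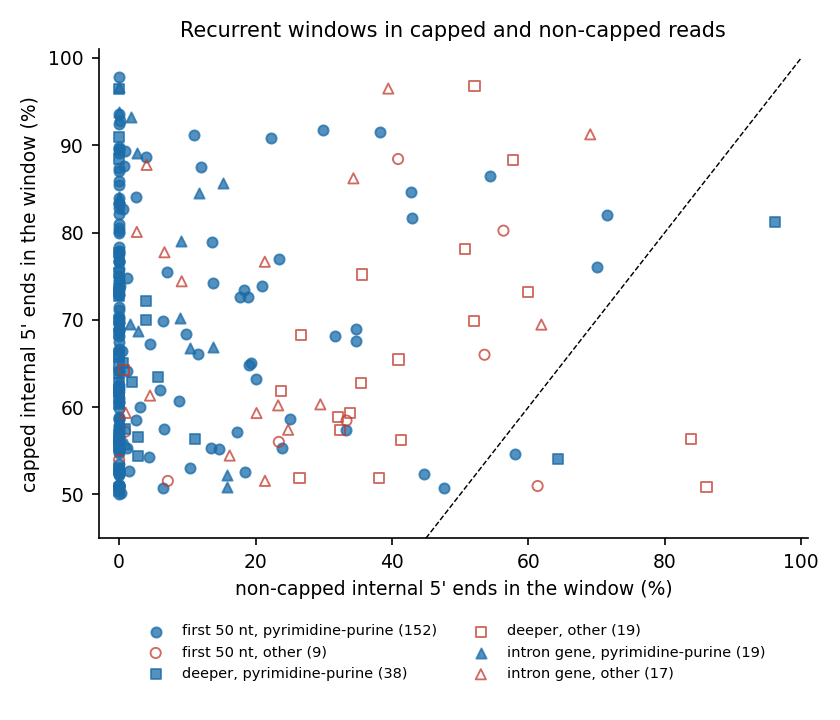
Each point is 1 of the 254 recurrent genes with at least 20 non-capped internal reads, placed by the share of its capped internal 5' ends (y axis, percent) and of its non-capped ones (x axis, percent) in the same 21 nt window. Markers give the position in the gene and colour gives the bases at the most used end, and the dashed line marks equal shares. Filled blue points, with a purine after a pyrimidine, crowd at a non-capped share of 0, and open red squares, deeper sites with other bases, lie mostly at 20% or more.

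The deep capped sites included genes in which nearly every molecule began inside the annotated coding sequence. BOL2, which codes for a protein of cytosolic iron regulation, had 720 internal and 10 whole reads in the long-enriched galactose column, 720 and 8 in the long-enriched glucose column, 2491 and 1 in the standard galactose column, and 2052 and 4 in the standard glucose column. In all 4 columns whole reads were rare, and the internal-start share over them was 99.6% (99.4 to 99.8). The window around position 74, counted from the first base of the start codon, held 73.8% in long-enriched galactose, 71.1% in long-enriched glucose, 73.7% in standard galactose and 70.03% in standard glucose. It held 4315 of 5983 capped reads, 72.1% (95% interval 70.97 to 73.3), against 23 of 592 non-capped reads, 3.89% (2.48 to 5.77). The first ATG after the site is in frame and would remove 35 of the 120 annotated residues.

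MOG1, whose product binds the Ran GTPase of nuclear transport, had 331 internal and 4 whole reads in the long-enriched galactose column, 238 and 8 in the long-enriched glucose column, 1339 and 2 in the standard galactose column, and 981 and 2 in the standard glucose column. Its window at position 83 held 2787 of 2889 capped reads, 96.5% (95% interval 95.7 to 97.1), against 0 of 173 non-capped reads, which allows a share of up to 1.73%. Here and below, the limit for a count of 0 is 3 reads over the total, which is less than the upper end of the exact interval, 2.11% for MOG1. Both limits treat reads as separate molecules and are too low where reads are copies. Of the 173 non-capped MOG1 reads, 110 began at position 351. As the MOG1 sequence shows, the in-frame ATG follows closely and would remove 30 codons. PRT1, a subunit of the translation initiation factor eIF3, had 1228 internal reads in long-enriched galactose, 1117 in long-enriched glucose, 441 in standard galactose and 269 in standard glucose, and 0 whole reads in each. Its 3055 internal reads put the lower limit of the share at 99.9%, and its window at position 78 held 1988 of 3055 capped reads, 65.1% (95% interval 63.4 to 66.8), against 4 of 791 non-capped reads, 0.506% (0.138 to 1.29). By column the PRT1 window held 75.6% in long-enriched galactose, 72.4% in long-enriched glucose, 35.4% in standard galactose and 35.3% in standard glucose, thus over 50% only in the long-enriched columns.

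SPL2, which regulates low-affinity phosphate transport, had 2967 internal and 8 whole reads, and its window at position 93 held 73.5% of capped internal reads, against 0 of 426 non-capped reads, which allows a share of up to 0.704%. COX23, needed for cytochrome c oxidase assembly, had 1587 and 15, with 90.99% of internal reads in its window at position 55, against 0 of 189 non-capped reads, which allows a share of up to 1.59%. MET7, the folylpolyglutamate synthetase gene, had 1895 and 13, with 61.7% at position 168, against 0 of 580 non-capped reads, which allows a share of up to 0.517%. The MET7 window, too, held more in the long-enriched columns, with 67.2% in long-enriched galactose, 66.2% in long-enriched glucose, 40.9% in standard galactose and 41.1% in standard glucose. In these 3 genes no non-capped read began in the capped window. ISC1, an inositol phosphosphingolipid phospholipase, kept more whole reads, with 3376 internal and 199 whole, and 62.9% against 1.88% of internal ends in its window. MRP13, a protein of the mitochondrial ribosome, had 884 internal and 5 whole reads but only 34 non-capped internal reads, none of them in the window, which allows a share of up to 8.82%.

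Another 3 deep windows with high shares had under 20 non-capped internal reads. They held 97.7% of 213 capped internal reads in YML100W-A, 89.4% of 254 in YGR201C and 81.6% of 201 in ABM1, whose non-capped internal reads numbered 12, 0 and 0. All 12 non-capped reads of YML100W-A came from the glucose library and began in the capped window (100%, interval 73.5 to 100).

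In all, 32 recurrent intronless members had an internal-start share above 90% and a non-capped window share under 5%. In some the second share rests on few non-capped reads, such as 20 in SRN2, 25 in FCY22 and 27 in ERG13, too few to exclude 5%. The 32 include YGL088W, whose window reads mostly held SNR10, as given below. All 32 had a purine after a pyrimidine at the most used end (100%, interval 89.1 to 100). The first downstream ATG was in frame in 25 of them (78.1%, 60.03 to 90.7), out of frame in 6 and missing in 1. Over all 3571 intronless members the first ATG after the most used end was in frame in 1110 (31.1%). These members differ from the 32 in where the end lies. With genes weighted by capped reads, the first ATG was in frame for 41.7% of all positions in the first 50 nt and 30.1% of deeper ones. Where the first ATG was in frame among the 32, the start would remove 12 to 62 codons, with a median of 29. Examples are MRP13, MRP35, MRPL3 and MRPL10 of the mitochondrial ribosome. Others are LAP2, an aminopeptidase, MEU1, which acts in methionine salvage, and XKS1, xylulokinase. Neither kind of gene was counted over all members. MRPL10, which codes for a mitochondrial ribosomal protein, had 1410 internal and 0 whole reads, with 72.98% of internal reads in its window, against 0 of 330 non-capped reads, which allows a share of up to 0.909%.

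Windows in the first 50 nt of the coding sequence were the most common recurrent kind. YSA1, which codes for an ADP-ribose hydrolase, had 1109 internal and 81 whole reads in the long-enriched galactose column, 670 and 56 in the long-enriched glucose column, 4575 and 605 in the standard galactose column, and 2490 and 432 in the standard glucose column. Its window at position 9 held 8209 of 8844 capped reads, 92.8% (95% interval 92.3 to 93.3), against 1 of 859 non-capped reads, 0.116% (0.00295 to 0.647). Internal reads outnumbered whole reads in every capped column. TNA1, the nicotinic acid permease, had internal reads in like excess but a window that differed between protocols. TNA1 had 1950 internal and 259 whole reads in the long-enriched galactose column, 2310 and 459 in the long-enriched glucose column, 425 and 21 in the standard galactose column, and 412 and 33 in the standard glucose column. Its window at position 7 held 95.6% in long-enriched galactose, 96.3% in long-enriched glucose, 52.5% in standard galactose and 61.4% in standard glucose. GRX2, a glutaredoxin made in cytosolic and mitochondrial forms, used both kinds of start, with 3393 internal and 7297 whole reads and 82.8% of the internal ones in its window at position 10.

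Among 9 genes known for a long and a short protein, 8 were members, and KAR4 had too few internal reads. The median internal-start share of these 8 was 57.5%, beside 20.4% over all members. A recurrent window was present in 4 of the 8, beside 8.69% of all members. HTS1, the histidyl-tRNA synthetase gene, had 1453 internal and 644 whole reads in the long-enriched galactose column, 1564 and 518 in the long-enriched glucose column, 412 and 143 in the standard galactose column, and 432 and 159 in the standard glucose column, and 89.8% of internal reads lay in its window at position 15, against 0 of 536 non-capped reads, which allows a share of up to 0.560%. TRM1, a tRNA methyltransferase, had 1230 internal and 92 whole reads, with 80.98% in its window at position 28, and by column 93.97% in long-enriched galactose, 90.9% in long-enriched glucose, 43.3% in standard galactose and 38.7% in standard glucose. CCA1, which adds the tRNA 3' end, had 226 and 297, with 85.4% at position 16. In HTS1, TRM1, CCA1 and SUC2 the first ATG after the site is in frame and would remove 20, 16, 9 and 20 codons in that order.

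The other 4 had spread windows. GLR1, glutathione reductase, put 48.5% of 1341 internal reads into its window at position 16, and this share differed by protocol, at 68.7% in long-enriched galactose, 73.5% in long-enriched glucose, 20.6% in standard galactose and 20.7% in standard glucose. VAS1, the valyl-tRNA synthetase gene, put 31.1% of 373 there (41.5% in long-enriched galactose, 45.9% in long-enriched glucose, 16.05% in standard galactose and 11.7% in standard glucose), and only 19 whole reads of this 3315 nt gene were seen. LEU4, an isopropylmalate synthase, put 21.6% of 547 there, with 40.9% in long-enriched galactose, 25.2% in long-enriched glucose, 9.57% in standard galactose and 0 of 114 reads in standard glucose. MOD5, a tRNA modification enzyme, put 17.1% of only 76 there, with 0 of 11 in standard glucose. None of the 8 had a non-capped read in its window. The non-capped internal reads numbered 3 for MOD5 and 25 for CCA1, too few to place a limit of use, and 106 to 2062 for the other 6.

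A second kind of deep recurrent window was shared with non-capped molecules. GPM1, phosphoglycerate mutase of glycolysis, had 1104 internal and 13933 whole reads in the long-enriched galactose column, 1306 and 25644 in the long-enriched glucose column, 5189 and 49768 in the standard galactose column, and 7070 and 125706 in the standard glucose column. Its window at position 498 held 61.2% in long-enriched galactose, 46.6% in long-enriched glucose, 66.9% in standard galactose and 61.05% in standard glucose. It held 9074 of 14669 capped reads, 61.9% (95% interval 61.1 to 62.6), against 8247 of 34823 non-capped reads, 23.7% (23.2 to 24.1). The same 21 nt thus held many ends of both kinds, though GPM1 met the 2-fold rule and was counted above as capped-enriched. Of the 57 deep windows measured, 20 had a non-capped share of 20% or more and 17 were not capped-enriched. Shared and capped-enriched windows therefore overlap. GPM1 kept a low internal-start share of 6.39%.

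SNU13, a protein of small nucleolar and spliceosomal particles, had 88.3% of 3389 capped internal ends in its window at position 253, against 2977 of 5156 non-capped reads, 57.7% (56.4 to 59.1). TRX1, a thioredoxin, had 96.8% of 1293, against 25.3% of non-capped ends in galactose and 65.4% in glucose. YPT1, a Rab GTPase of the secretory pathway, had 78.2%, against 50.7% of non-capped ends. In these 3 genes more than 50% of non-capped ends, summed over both media, lay in the capped window. NSR1, a nucleolar protein, had 57.4% against 32.4%. EMI1 was the extreme, with 3382 internal and 2 whole reads. Its window held 81.3% of capped ends, against 75 of 78 non-capped reads, 96.2% (89.2 to 99.2). Unlike those of GPM1, SNU13 and TRX1, its most used end was a purine after a pyrimidine. GAL10, an enzyme of galactose use, had its window at position 1857, which held 24.8% of internal reads in long-enriched galactose and 75.02% in standard galactose, against 33.9% of non-capped reads.

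**Figure D3:**
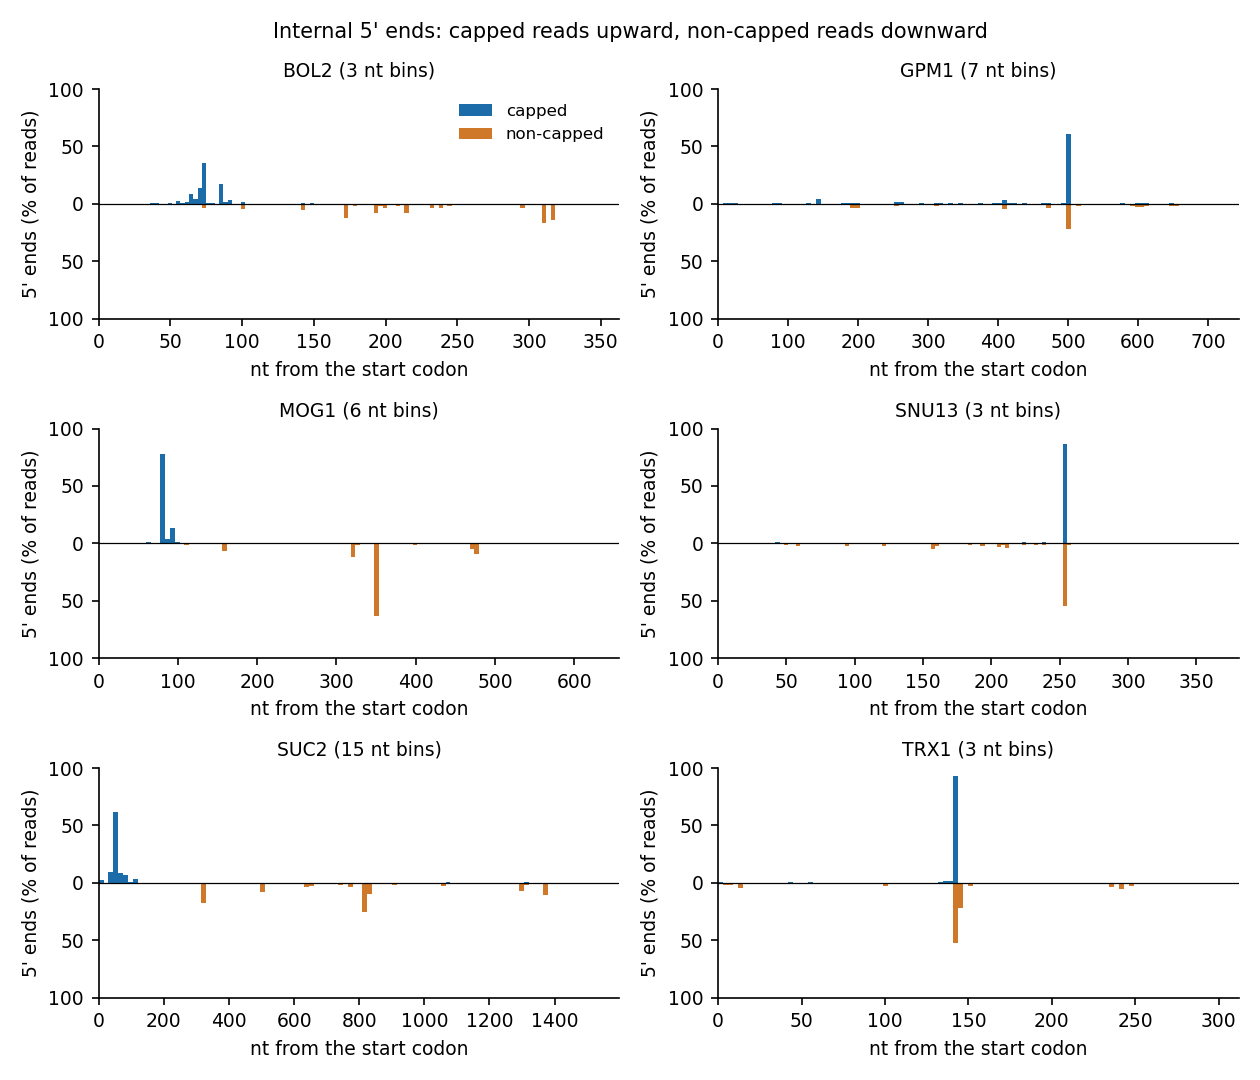
Positions of internal 5' ends (x axis, nt from the start codon) in 6 genes, as a percent of the gene's capped internal reads (blue, upward) and of its non-capped ones (orange, downward), in the bin width given for each gene. In BOL2, MOG1 and SUC2, on the left, the capped peak has no non-capped partner of like height, and in GPM1, SNU13 and TRX1, on the right, both kinds peak in the same bin.

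Some spread windows were poorer in capped than in non-capped ends. The 5 deep windows with the lowest ratio over the summed non-capped reads were in NNK1, VPS15, RQC2, YBP2 and AVL9. There the best capped window held 5.56%, 7.51%, 7.96%, 5.75% and 10.8% of capped internal ends in that order. These shares rest on only 8, 16, 16, 5 and 15 capped reads. The non-capped ends in the same window of NNK1 were 55 of 71 reads in the galactose library and 0 of 29 in the glucose library. For VPS15 they were 108 of 132 reads in the galactose library and 1 of 32 in the glucose library, and for YBP2 51 of 59 reads in the galactose library and 0 of 54 in the glucose library. In these 3 genes nearly all of the non-capped ends in the window came from the galactose library. Both libraries had them in RQC2, with 55 of 73 reads in the galactose library and 39 of 70 in the glucose library, and in AVL9, with 72 of 72 reads in the galactose library and 31 of 60 in the glucose library. At the other end were PRT1, MET7, SPL2 and, with 0 of 507 and 0 of 483 non-capped reads in the window, the histone deacetylase gene HST1 (capped share 75.6% in long-enriched galactose, 67.6% in long-enriched glucose, 28.3% in standard galactose and 27.3% in standard glucose) and VMA10, a subunit of the vacuolar proton pump. VMA10 belongs to the 20 intron genes described below whose most used end lies shortly before a later exon. Of its 483 non-capped internal ends, 10.97% lay within the 20 nt before that exon but outside the window. The count of 0 for VMA10 thus depends on where the window ends.

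The bases at the most used end followed the same division. The motif examined was 1 base of C or T before the end and A or G at it, on the sense strand. Among deep recurrent windows with a non-capped share under 5%, 34 of 35 most used ends had it (97.1%, 85.1 to 99.9), against 2 of 20 (10.0%, 1.23 to 31.7) where the non-capped share was 20% or more. In the first 50 nt the counts were 110 of 112 (98.2%, 93.7 to 99.8) and 20 of 26 (76.9%, 56.4 to 91.0). Among intronless members without a recurrent window it was present in 1255 of 3281 (38.3%, 36.6 to 39.9). Yeast start sites also often have an A 8 bases upstream, and 23 of the 40 deep capped-enriched windows had it (57.5%, 40.9 to 73.0), against 6 of the 17 deep windows that were not capped-enriched (35.3%, 14.2 to 61.7), intervals that overlap.

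**Figure D4:**
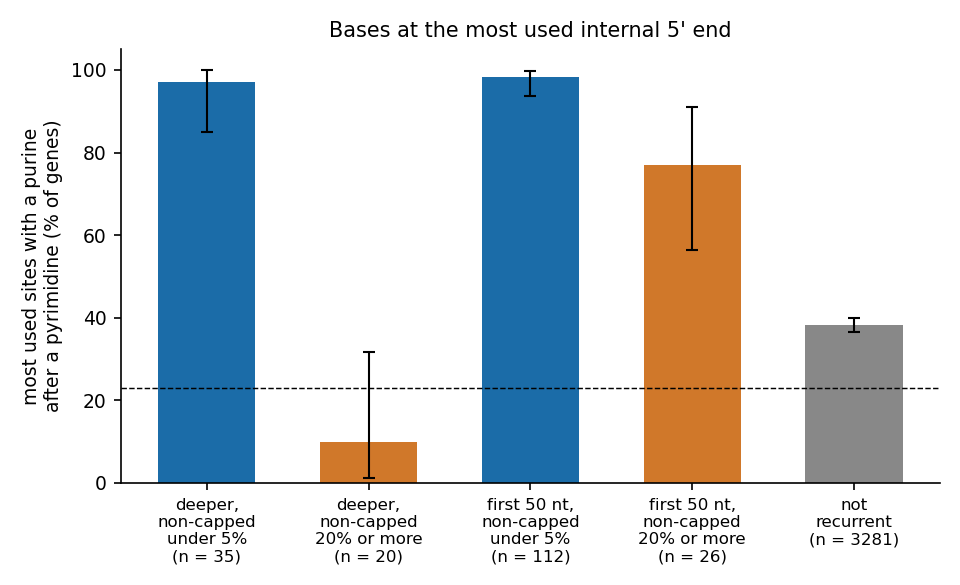
Percent of genes whose most used internal 5' end is a purine after a pyrimidine (y axis), for recurrent windows split by position and by their share of non-capped ends, and for intronless members with no recurrent window. Bars carry exact binomial 95% intervals over n genes, and the dashed line is the 22.9% found at all positions of the same coding sequences. The deep windows differ most, with 97.1% where the non-capped share is under 5% and 10.0% where it is 20% or more.

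Over reads the base preference was clear near the start codon and slight deeper in the gene. In the first 50 nt, 73.5% of capped ends were a purine after a pyrimidine, against 22.9% of all positions there, and 16.1% of non-capped ends were. Deeper in the coding sequence the capped share was 23.3%, against 22.9% of all positions, and the non-capped share was 17.5%. Deep capped reads as a whole thus had this base pair about as often as any position of their genes, unlike the deep recurrent windows low in non-capped ends. An A 8 bases upstream was found at 54.6% of capped ends in the first 50 nt, against 33.8% of positions, and at 33.2% of deeper ones, against 30.8% of positions. The first downstream ATG was in frame for 37.2% of capped internal reads, against 29.7% over all positions of the same genes, and for 32.7% of non-capped reads.

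In genes with introns a distinct class of site lay at the start of a later exon. Of the 37 recurrent intron genes, 20 had their most used end 0 to 17 nt upstream of a later exon, 9 of them at 0 or 1 nt and 10 at 8 to 15 nt, and 18 of the 20 code for ribosomal proteins, as do 87 of all 193 members with introns. Summed over these 193, 31.6% of capped internal reads and 4.07% of non-capped ones began within the 20 nt before a later exon. The median over genes was lower, at 3.79% of capped and 0.617% of non-capped ends, beside 2.31% if ends were spread evenly, and RPL19A, RPL13B and RPS30B gave the most capped reads to the sum. RPL19A had 591 internal and 1073 whole reads in the long-enriched galactose column, 763 and 892 in the long-enriched glucose column, 2687 and 6240 in the standard galactose column, and 3845 and 7433 in the standard glucose column, and its window held 93.3% of capped internal ends, against 1.68% of non-capped ones. RPL13B, among the 10 members with most internal reads, had 68.7% of 9716 capped internal ends in its window, against 2.71% of non-capped ones.

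In every one of the 20 the coding part of the first exon was 1 to 7 nt long, with a median of 3 nt beside 25 nt over all intron members, and 51 of the 193 intron members had 10 nt or fewer. Whole reads of the 20 genes most often began 18 to 45 nt before the start codon. The part that alignment across so short a coding exon plays in these 5' ends was not tested. In 15 of the 20 genes a near-identical copy exists, so that counts could be split between copies, and 18 were capped-enriched. In 8 of the 20 the window held 20% or more of non-capped ends. The highest were RPL35A, RPL35B and RPS30B, with 91.3%, 69.5% and 96.5% of capped ends in the window, against 69.1%, 61.9% and 39.5% of non-capped ends. Of the other 17 recurrent intron genes, 11 had the window in the first 50 nt. HNT1, a nucleotide hydrolase gene, was among them, with 9101 internal and 290 whole reads and 79.01% against 9.10% of ends in its window.

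In 6 members most reads of the leading window held a complete noncoding RNA gene. Small nucleolar RNAs guide chemical changes of ribosomal RNA, and some are carried in introns of protein-coding genes. SNR44 lay in 98.2% of the window reads of RPS22B, and SNR54 in IMD4, SNR24 in ASC1, SNR191 in NOG2 and SNR59 in RPL7B lay in 100% of theirs. YGL088W had 440 internal and 0 whole reads, with 88.4% in its window at position 151, and 87.9% of those window reads held SNR10. These reads cannot be told apart from transcripts of the noncoding gene.

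A window found in one medium was mostly found again in the other. Windows were placed on the standard glucose reads and read in standard galactose, which comes from other cultures, for 2974 genes with at least 20 internal reads in each. Of 273 windows holding at least 50% of internal ends in glucose, 213 (78.0%, 72.6 to 82.8) did so in galactose, with medians of 64.3% in galactose and 67.2% in glucose. In long-enriched galactose 138 of 172 such windows kept at least 50%. Windows under 50% had medians of 7.37% in galactose and 19.0% in glucose, where the placing on glucose reads raises the second value. The galactose share was under 10% in 3 genes. OCT1 had 4.17% of 48 reads in galactose, against 61.9% of 21 in glucose. GYP1 had 7.69% of 39, against 71.1% of 38, and GAL80, a repressor of the galactose genes, 9.58% of 240, against 50% of 40.

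Few genes differed in internal-start share between the media in both protocols. A gene was called when the odds of internal to whole reads differed at least 2-fold in the same direction in the long-enriched and in the standard columns, with intervals that did not overlap in either. Of 3775 genes measured, 12 were called higher in galactose, 0.318%, and 12 were called lower, also 0.318%, and all 24 were among the 3265 members measured. No gene was called in opposite directions in the 2 protocols. Since the long-enriched cultures are also in the standard columns, the second protocol repeats the measurement and not the culture.

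HXT3, a low-affinity glucose transporter, showed the largest difference upward. It had 33 internal and 23 whole reads in long-enriched galactose, against 384 and 12058 in long-enriched glucose. In the standard columns it had 153 and 1 in galactose, against 557 and 1405 in glucose. Both kinds of read were fewer in galactose, whole reads by far the more. The HXT3 window at position 1227 held 66.7% and 68.6% of internal ends in the long-enriched and standard galactose columns, against 1.56% and 2.33% in the glucose ones. RGL1, with its most used end at position 24, had a share of 83.7% in galactose (81.4 to 85.8), against 17.4% in glucose (10.96 to 25.6), in the long-enriched columns, and of 93.7% in galactose (91.1 to 95.8), against 60% in glucose (43.3 to 75.1), in the standard ones. Its interval is chrXVI:426216-426295 on the plus strand, in RefSeq R64, and the capital below is that end.
RGL1: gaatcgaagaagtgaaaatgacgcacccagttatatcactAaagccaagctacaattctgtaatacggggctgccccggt

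FUR4, the uracil permease, had 50.8% in galactose (46.6 to 55.03), against 9.30% in glucose (7.04 to 11.99), in the long-enriched columns, and ARG8, an enzyme of arginine synthesis in mitochondria, had 47.2% in galactose (36.5 to 58.1), against 13.8% in glucose (8.76 to 20.3). PCL10, a cyclin of the Pho85 kinase, had low shares, with 7.37% in galactose (6.01 to 8.91), against 1.95% in glucose (0.718 to 4.19), in the long-enriched columns. Its standard share was 16.8% in galactose (14.1 to 19.8), against 4.17% in glucose (1.37 to 9.46). The other 7 called higher were AAC1, the minor mitochondrial ADP/ATP carrier, ATP15, a subunit of the ATP synthase, the amino acid synthesis genes ARG7 and LYS4, SCT1, STT3 and DIF1. The window was recurrent in RGL1, PCL10, ATP15 and DIF1 and spread in the other 8.

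Among the genes called lower in galactose, SUC2 is the textbook case of 2 starts. It had 818 internal and 571 whole reads in long-enriched galactose, against 657 and 82 in long-enriched glucose. In the standard columns it had 263 and 93 in galactose, against 186 and 11 in glucose. Internal reads exceeded whole reads in all 4 columns, and whole reads, which code for the secreted form, were more frequent relative to them in galactose. The SUC2 share was 58.9% in galactose (56.3 to 61.5), against 88.9% in glucose (86.4 to 91.1), in the long-enriched columns, and 73.9% in galactose (68.99 to 78.4), against 94.4% in glucose (90.2 to 97.2), in the standard ones. The SUC2 window held 80.2% in long-enriched galactose, 78.7% in long-enriched glucose, 66.2% in standard galactose and 68.3% in standard glucose, so the same site was used in both media.

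FUM1, fumarase, made in mitochondrial and cytosolic forms, had 12.4% in galactose (10.4 to 14.7), against 44.9% in glucose (38.8 to 50.98), in the long-enriched columns and 39.8% in galactose (34.8 to 45.1), against 71.2% in glucose (64.6 to 77.1), in the standard ones. GND2, the minor 6-phosphogluconate dehydrogenase, had 10.5% in galactose (5.56 to 17.7), against 63.6% in glucose (45.1 to 79.6), in the long-enriched columns. GIT1, a glycerophosphoinositol transporter, had 24.3% in galactose (20.9 to 27.9), against 76.7% in glucose (67.97 to 84.1) there. YGR050C rested on the fewest reads, with 98 internal and 163 whole reads over the 4 columns and a long-enriched share of 8.57% in galactose (1.80 to 23.1), against 50% in glucose (27.2 to 72.8). The other 7 called lower were OM45, a mitochondrial outer membrane protein, the kinase gene CMK1, RIB5 of riboflavin synthesis, the ribosomal protein gene RPL23A, GFD2, POM33 and IRC7. For HXT3, SUC2, FUM1, GND2 and GIT1 the number of whole reads differed between media as well, and its part in the share was not tested. FUM1, GND2 and GIT1 had more whole reads in galactose than in glucose in both protocols. Internal reads were about equal between media in FUM1, fewer in galactose in GND2 and more in galactose in GIT1. These are read counts that were not scaled for the depth of the columns. PCL10, GIT1, SUC2 and YGR050C were no longer called when each pair of ends was counted once, and RGL1, PCL10, GIT1, YGR050C and FUM1 when the first 50 nt were left out.

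**Figure D5:**
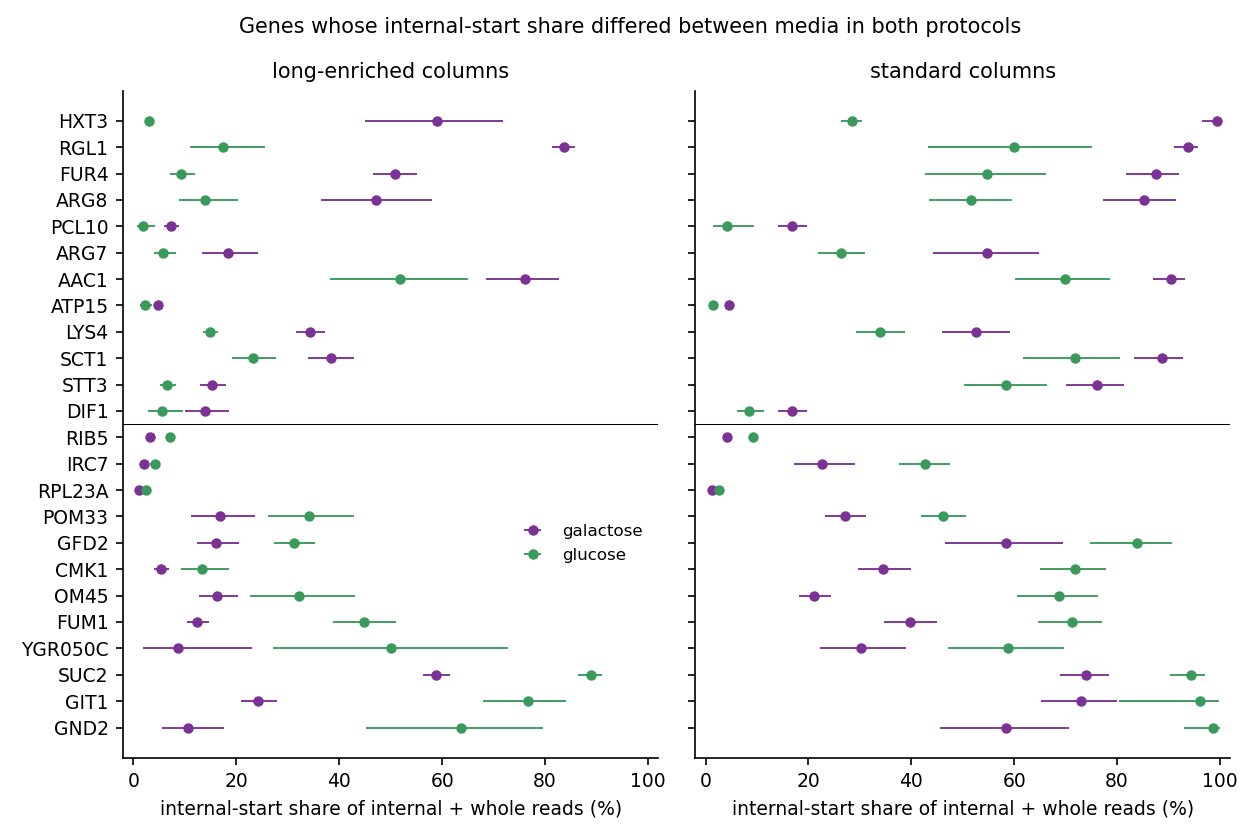
Internal-start share (x axis, percent of internal plus whole reads) of the 24 genes called between media, in the long-enriched columns (left) and the standard columns (right), with galactose in purple, glucose in green and exact binomial 95% intervals. The 12 genes above the line were called higher and the 12 below it lower in galactose. HXT3 stands at 58.9% in galactose, against 3.09% in glucose, in the long-enriched columns.

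The share of ends in the window differed between protocols in long genes and little in short ones. Of 248 recurrent genes with at least 20 internal reads in each protocol, 187 reached 50% in both, 41 in the long-enriched columns only and 20 in the standard columns only. Among those without introns, genes up to 1000 nt had a median window share of 73.3% in the long-enriched columns and 70.4% in the standard ones, higher in the long-enriched columns in 78 of 144. Between 1000 and 1500 nt the medians were 70.0% and 54.8%, higher in 29 of 39. Above 1500 nt they were 72.9% and 39.0%, higher in 28 of 32. The windows themselves were chosen on the sum of both protocols.

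Internal and whole molecules of the same gene ended at nearly the same places. In 3236 members with at least 50 reads of each kind, the median 3' end lay 120 nt past the stop codon for internal reads and 118 nt for whole reads. In 2880 of them (89.0%) the 2 medians were within 10 nt. Internal reads ended 50 nt or more farther out in 65 and 50 nt or more nearer in 22. For deep recurrent windows with a non-capped share under 5%, 13 of 17 were within 10 nt and 2 ended 50 nt or more farther out.

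In the abundant gene families the counts of recurrent windows were as follows, beside 8.69% of all members. The families also differ in coding length, and no difference between them was tested. Of 137 cytosolic ribosomal protein genes 131 were members, with a median internal-start share of 2.67%, and 31 had a recurrent window. In 18 of these 31 the window was one of those at a later exon start, where the part of alignment was not tested. Of 34 genes of the ATP synthase and respiratory chain 32 were members, with a median share of 2.86%, and 6 had one, namely the ATPase inhibitor gene INH1, the Rieske protein gene RIP1, COX6, COX7 and COX8 of cytochrome c oxidase and ATP14. Of 24 glycolysis and fermentation genes 21 were members, with a median share of 5.67%, and GPM1 alone had a recurrent window. TDH3, the main glyceraldehyde phosphate dehydrogenase gene, had 11008 internal reads, a share of 1.64% and 19.9% of its internal ends in the best window.

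All 8 galactose pathway genes were members, with a median share of 16.8%, and only GAL10 had a recurrent window. The galactose permease gene GAL2 had 13244 internal reads and GAL1, galactokinase, 13150, with 8.43% and 7.40% in their best windows. No recurrent window was called in 9 members of 10 translation elongation factor genes, 18 of 20 heat shock chaperone genes, 7 of 9 plasma membrane and vacuolar ATPase genes or 10 of 18 cell wall mannoprotein genes, whose median shares were 1.94%, 11.6%, 2.38% and 1.70% in that order. PMA1, the plasma membrane proton pump, spans 2757 nt and had 2349 internal and 394 whole reads with 5.96% in its best window. The other leading members of these lists, HYP2 and YEF3 of elongation, SSC1 and YDJ1 of the chaperones, VMA3 of the vacuolar pump, SED1 and CCW12 of the wall and ATP1 and ATP2 of the ATP synthase, had 5.20% to 46.0% of internal ends in their best windows. RPL3, the member with most internal reads, had 20610 of them and 8.48% in its best window, beside 7.19% of its non-capped ends.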

How the data were processed

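Per the file headers, the deposited values are counts of reads per pair of ends, in 6 columns that each pool 1 kind of library. All 6 were used and 0 left out. CASAVA, Novoalign 2.07.10 and the build R64 appear in the submitters' processing notes. The handling of duplicate reads is not stated in the sources used here. Spans ran from 40 to 5000 nt, and all positions lay within R64 chromosomes.

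Counts were not scaled, since every share is taken within a column. Coding sequences came from the RefSeq R64 annotation without pseudogenes, and positions count from 1 at the start codon, introns included. A whole read holds 1 complete coding sequence on its own strand. Near-identical copies (90% identity or more across 80% or more of the spliced coding length) were found with blastn 2.17.0 for 384 genes, 125 of them members, and their counts are uncertain. With 1 value per group, shares carry Clopper-Pearson intervals, and odds ratios add 0.5 to each count. A share of 0 allows up to 3 counts of the total, if each read is a separate molecule. The rules were tested on simulated data.

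Named genes were the 10 with most internal reads, the 10 with the highest window share and the 10 with the highest internal-start share (each of the last 2 with at least 200 internal reads and no near-identical copy, the windows more than 50 nt inside), the 5 called with the largest difference each way between media, the 5 with the highest and 5 with the lowest capped over non-capped window share (at least 100 non-capped reads), all known long and short forms, and 2 of every other list. BOL2, ISC1, MRP13, TNA1, GRX2, EMI1, NSR1, YPT1, the intron and noncoding RNA examples and the genes named for a window lost in galactose were picked once their values were known. The members and lists were chosen with earlier results of these data known. Alternatives were 11 and 51 nt windows, pairs counted once or seen at least 2 times, either strand, the first 50 nt left out, other minima and folds, single protocols and copies left out, and, chosen after seeing the data, a window placed in standard glucose and each non-capped library alone. The software was scipy 1.17.1, pandas 2.3.3, numpy 2.4.6 and matplotlib 3.10.9 under Python 3.11.15.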

Additional observations from a re-analysis of the deposited data

How the results depend on the processing

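No paired analysis was possible because the deposited columns are sums over libraries and carry no replicate numbers, and for the same reason no capped library could be left out. The internal-start share of capped reads was 6.89% as reported, 31.2% with each pair of ends counted once, 4.62% over pairs seen at least 2 times, 6.92% with complete coding sequences on either strand and 5.92% without the first 50 nt. The 327 recurrent genes became 499 with a 51 nt window, 157 of 3303 with pairs counted once, 169 without the first 50 nt, 174 of the 1437 with at least 200 reads and 208 of 1753 in the long-enriched columns alone. The other settings stayed within 1.5 times of 327, from 231 with an 11 nt window upward. Capped-enriched windows were 220 of 254 as reported, 20 of 24 with pairs counted once and 132 of 163 with the glucose-placed window, and leaving out either non-capped library gave 155 of 180 with the galactose library alone and 183 of 216 with the glucose library alone (these 3 settings were chosen after seeing the data). Between media, the standard protocol alone called 76 genes higher and 143 lower in galactose, a 1.5-fold rule in both protocols called 28 lower, and pairs counted once left 3 lower. An in-frame first ATG followed 32.5% of ends with pairs counted once and 35.4% without the first 50 nt. A purine after a pyrimidine stood at 25.3% of ends with pairs counted once. With pairs counted once, 27 of 65 named window shares fell over 1.5-fold, the lowest to 0.148 of its value, 24 of 65 internal shares rose over 1.5-fold, by up to 53.7-fold, and of 10 named odds ratios between media 4 fell and 4 rose over 1.5-fold. No direction reversed under any of these settings.

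Some named genes lost their call between media. With pairs counted once these were PCL10, GIT1, SUC2 and YGR050C, and with pairs seen at least 2 times GIT1 and YGR050C. Without the first 50 nt they were RGL1, PCL10, GIT1, YGR050C and FUM1. With at least 50 reads per column RGL1, GND2, GIT1 and YGR050C were no longer measured. The causes were not tested. Depth limits the non-capped check, since 92 members had no internal non-capped read and few distinct pairs stand behind the others.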
